A study of Mus musculus with 7 samples.

Results

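The islet vasculature and its surrounding stroma were followed through 34 named genes, measured in whole islets of mice that had lost Wnt4 in β-cells and of littermates that had not. The genes were listed by cell type and form 3 classes, namely 14 endothelial genes, 8 genes of pericytes and smooth muscle, and 12 genes of stromal cells and their matrix. They were 34 of the 22911 gene symbols with a probe on the array, and each gene was represented by its brightest probe over all arrays. Of the 34, 33 passed the filter on dim probes and were tested, with 13 endothelial, 8 pericyte and smooth muscle and 12 stromal genes among them.

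Islets are densely vascularised. Endothelial cells form the fenestrated capillaries through which insulin leaves the islet and glucose reaches it, β-cells attract these vessels mainly by secreting VEGF-A, and islet cells sit against the basement membrane that the endothelium deposits. Pericytes wrap the capillaries and set their calibre, smooth muscle cells surround the feeding arterioles, and fibroblasts around the islet lay down fibrillar collagens. WNT4 is a secreted ligand of the Wnt family, so the comparison asks whether its loss in β-cells was accompanied by a change in cells that are not themselves the target of the deletion.

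The Wnt4βKO group was Pdx1CreER;Wnt4 fl/fl, in which both floxed Wnt4 alleles are removed by a tamoxifen-activated Cre under the Pdx1 promoter, and the control group was Wnt4 fl/fl without the Cre transgene, called WT in 1 label field. Both groups carried the floxed alleles, were crossed to C57BL/6J, received tamoxifen at 4 to 5 weeks and were collected at 7 weeks. In adult islets the Pdx1 promoter is active in β-cells and not in the cells described here, and the controls carried no Cre, so an effect of the transgene itself cannot be told apart from the loss of Wnt4. The study's methods name male mice, islets freed by collagenase and picked by hand, and 1 further control left out by the authors for failing quality tests, which was not analysed here. There were 3 controls (numbers 2, 3 and 4) and 4 Wnt4βKO samples (numbers 1 to 4). Each array was taken as 1 mouse, which the study's methods do not state outright.

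All 7 arrays lay on 1 slide, between 45.5% and 49.0% of their spots were well above background, and no spot was saturated. Values are log2 signals after background correction and quantile normalization, a difference is Wnt4βKO minus control on that scale, and an offset added during background correction pulls values near the background together, so differences of the dimmest genes are understated. Wnt4 itself averaged 11.50 ± 0.30 (SD, n = 3) in controls and 11.02 ± 0.22 (n = 4) in Wnt4βKO, with 3 of the 4 Wnt4βKO arrays below all controls and 1 between them. Its difference did not pass the limma test after Benjamini-Hochberg adjustment (adjusted p = 0.651), and whether its probe lies in the deleted part of the gene was not checked. Acinar markers, which report exocrine cells carried along with islets, were lower on all 4 Wnt4βKO arrays (mean of 20 genes 12.23 to 13.25) than on the 3 controls (13.45 to 13.61).

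The samples were whole islets without cell-type labels, and detection of each class was read from its listed genes. Well-known endothelial transcripts such as Plvap, Egfl7, Emcn, Flt1 and Kdr were well above background on all 7 arrays, and 8 of the 13 tested endothelial members were. All 7 arrays were also above background for 7 of the 8 pericyte and smooth muscle members and for 9 of the 12 stromal members. Cldn5, the claudin of endothelial tight junctions, was above background on 2 Wnt4βKO arrays and no control, and was not tested. Its means were 5.99 in Wnt4βKO and 5.88 in controls, near the bottom of the scale. Wnt4βKO 1 (5.88) lay among the controls (5.83 to 5.93), so the groups overlapped. For fibroblasts, a further list of 29 genes of these cells and their matrix was read. Of these, 23 were tested and 16 were well above background on all 7 arrays. From the same list, Pdgfra, Dpt, Lox, Tnc and Mmp2 were above background on none of the arrays.

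Of the 34 members, 21 had a promoter window in the RefSeq table for GRCm38.p6, running from 250 bases before to 50 bases after the annotated start, and these gave 23 windows. The TATA motif TATAAA, the CCAAT box, the GC box (letters GGGCGG) and the motif AGGAAG were searched on both strands, the last of them holding the GGAA core that ETS factors, major regulators of endothelial genes, bind. AGGAAG was in 7 of 11 endothelial windows (3 of the 11 belong to the single gene Egfl7), in 0 of 5 pericyte and smooth muscle windows and in 2 of 7 stromal windows, beside 35.4% of all 32851 windows. CCAAT was in 1 of 11, 1 of 5 and 4 of 7, beside 37.4%. GGGCGG was in 4 of 11, 3 of 5 and 3 of 7, beside 35.7%, and TATAAA in 1 of 11, 0 of 5 and 2 of 7, beside 13.6%. The windows overlap where starts lie close together, and a match is a description of the letters only. The sequences shown are those of 3 collagen genes, picked because collagens are the largest gene family in the stromal class, and of Tie1, the endothelial member closest to the rest of its class. Col4a2 (chr8:11312555-11312854, plus strand) starts 21 bases from Col4a1 on the opposite strand, and their windows share 78 bases. Col1a2 lies at chr6:4505368-4505667 and Col3a1 at chr1:45311288-45311587, both on the plus strand, and Tie1 at chr4:118489800-118490099 on the minus strand. Each runs 5′ to 3′ along its gene's strand. Capitals mark the TATA motif, the CCAAT box and the GC box in the collagen windows and AGGAAG in Tie1, on either strand.
Col4a2: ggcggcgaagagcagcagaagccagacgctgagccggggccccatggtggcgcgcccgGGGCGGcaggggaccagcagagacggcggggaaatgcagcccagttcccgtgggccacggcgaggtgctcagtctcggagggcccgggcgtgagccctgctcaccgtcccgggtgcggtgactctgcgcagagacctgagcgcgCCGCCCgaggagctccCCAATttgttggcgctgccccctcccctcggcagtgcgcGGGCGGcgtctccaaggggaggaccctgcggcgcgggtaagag
Col1a2: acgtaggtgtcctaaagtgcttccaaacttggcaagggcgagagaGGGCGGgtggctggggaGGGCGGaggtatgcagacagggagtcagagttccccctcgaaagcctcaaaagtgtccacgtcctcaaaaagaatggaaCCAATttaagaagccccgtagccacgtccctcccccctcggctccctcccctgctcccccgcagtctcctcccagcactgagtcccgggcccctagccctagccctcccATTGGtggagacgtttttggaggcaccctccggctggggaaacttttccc
Col3a1: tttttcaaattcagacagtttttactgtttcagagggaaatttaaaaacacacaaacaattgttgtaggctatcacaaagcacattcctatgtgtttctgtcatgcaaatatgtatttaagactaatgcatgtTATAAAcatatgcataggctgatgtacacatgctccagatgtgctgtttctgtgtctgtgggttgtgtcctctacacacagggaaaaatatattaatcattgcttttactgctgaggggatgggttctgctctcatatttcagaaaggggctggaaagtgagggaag
Tie1: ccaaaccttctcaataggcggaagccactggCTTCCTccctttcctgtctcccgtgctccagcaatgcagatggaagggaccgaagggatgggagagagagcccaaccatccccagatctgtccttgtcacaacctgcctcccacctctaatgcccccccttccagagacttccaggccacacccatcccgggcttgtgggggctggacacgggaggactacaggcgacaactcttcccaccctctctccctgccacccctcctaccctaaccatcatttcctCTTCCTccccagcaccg
The Col4a2 window held the CCAAT box and the GC box, the Col1a2 window held the same 2 motifs, and the Col3a1 window held TATAAA at position -117 and neither of the others.

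Across the vascular and stromal genes, no difference between Wnt4βKO and control islets passed the test. By limma, 0 of 33 tested members had an adjusted p under 0.05, beside 4 of all 26151 tested probes (0.0153%). At an unadjusted p under 0.05 the count was again 0 of 33, beside 1821 probes (6.96%), and in 0 of 33 did the values of the 2 groups stay apart without overlap, beside 1894 probes (7.24%). By direction, 0 members were higher (3.33% of probes) and 0 lower (3.63%) at the unadjusted threshold, and 0 lay apart above (3.54%) or below the controls (3.7%). Without regard to any threshold, 15 members had a higher and 18 a lower mean in Wnt4βKO, where 49.1% of all probes were lower, with a median difference of -0.0036 beside 0.0027 over all tested probes. In bulk islets, fewer cells of a type and less RNA per cell cannot be told apart. The samples were taken to come from separate mice, and precision is limited by how few arrays there were.

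**Figure D1:**
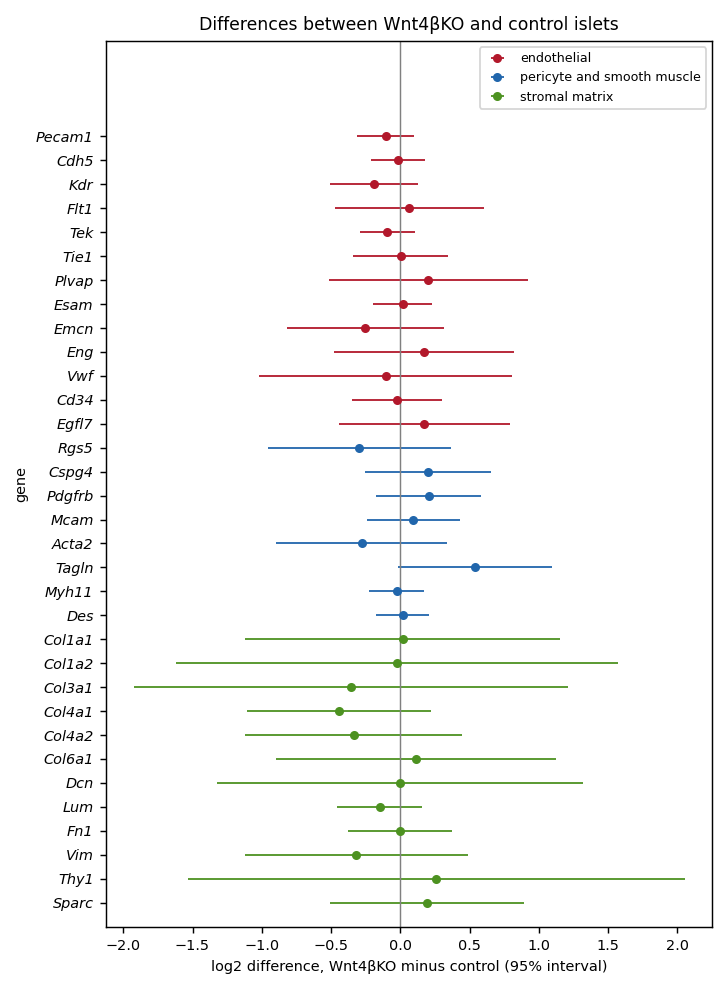
Difference of each tested member, Wnt4βKO minus control, on the log2 scale (x axis) by gene (y axis), coloured by class. Points are limma estimates and bars their 95% intervals, from 3 control and 4 Wnt4βKO arrays. All 33 intervals cross 0, that of Tagln by the least (-0.020 to 1.09), and the widest belong to stromal genes.

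Among the endothelial genes the differences were small and went both ways, with 6 higher, 7 lower and a median of -0.018. They ran from -0.25 to 0.20, and in 4 of 13 genes the difference was larger than its own standard error. The share of all tested probes with such a difference was not taken, here or for the other classes and lists. Emcn, the sialomucin of capillary and venous endothelium, measured 9.07, 9.47 and 9.45 in controls 2, 3 and 4 and 8.53, 8.92, 9.34 and 9.52 in Wnt4βKO 1 to 4. Wnt4βKO 1 and 2 lay below all controls and Wnt4βKO 4 above them, so the groups overlapped, and the difference of -0.25 ± 0.24 (SE) was the largest of the class in size (adjusted p = 0.888).

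Plvap, which forms the diaphragms of fenestrated capillaries, measured 9.67, 10.44 and 10.54 in controls and 9.92, 10.20, 10.52 and 11.04 in Wnt4βKO. Control 2 was the lowest and Wnt4βKO 4 the highest array, and the difference of 0.20 ± 0.31 (SE) was smaller than its error (adjusted p = 0.929). Kdr, the main VEGF-A receptor, measured 8.35, 8.58 and 8.27 in controls and 7.97, 8.47, 8.13 and 8.28 in Wnt4βKO. Here 2 Wnt4βKO arrays lay below all controls and the other 2 among them, with a difference of -0.19 ± 0.14 (SE, adjusted p = 0.851).

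The junctional adhesion genes were dim. Pecam1, the platelet and endothelial adhesion molecule CD31, measured 5.98, 6.25 and 6.08 in controls and 5.92, 6.05, 5.97 and 6.06 in Wnt4βKO. Cdh5, the cadherin of endothelial adherens junctions, measured 5.85, 6.04 and 6.08 in controls and 5.90, 6.01, 5.94 and 6.03 in Wnt4βKO. From the lowest to the highest array Pecam1 spanned 1.26-fold and Cdh5 1.18-fold, near the bottom of the scale, and the groups overlapped. Pecam1 was well above background on 6 arrays and Cdh5 on 4, and their differences were -0.11 ± 0.087 and -0.018 ± 0.083 (SE, adjusted p = 0.869 and 0.981).

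The other receptors gave no clearer split. Flt1, which binds VEGF-A and limits its signalling, spanned 8.59 to 8.99 in controls and 8.45 to 9.31 in Wnt4βKO, with 2 Wnt4βKO arrays above and 2 below all controls. Differences of the angiopoietin receptor Tek and of its partner Tie1 were -0.093 ± 0.084 and 0.0015 ± 0.15 (SE), and that of the TGF-β co-receptor Eng was 0.17 ± 0.28 (SE). For the secreted Egfl7, 3 of 4 Wnt4βKO arrays lay above all controls and the remaining array below them (difference 0.17 ± 0.26, SE). The remaining endothelial genes Vwf, Esam and Cd34 differed by -0.11, 0.017 and -0.027, each less than its standard error.

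In the class of pericytes and smooth muscle, 5 of 8 genes were higher and 3 lower, with a median of 0.055, and Tagln stood nearest to the threshold of all 33 members. Tagln, the actin-bundling transgelin of contractile cells, measured 7.43, 8.07 and 8.01 in controls and 7.91, 8.25, 8.58 and 8.75 in Wnt4βKO. Wnt4βKO 2, 3 and 4 lay above all controls and Wnt4βKO 1 lay between them. The Wnt4βKO mean was 145% of the control mean, with a log2 difference of 0.54 ± 0.24 (SE, 95% interval -0.020 to 1.09, limma adjusted p = 0.733).

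Acta2, the smooth muscle actin that with Tagln marks contractile mural cells, gave opposite answers from its probes. Its brightest probe measured 8.79, 9.01 and 8.57 in controls and 7.90, 9.07, 8.66 and 8.40 in Wnt4βKO. A second tested probe measured 6.70, 7.41 and 7.36 in controls and 7.15, 7.76, 8.23 and 8.21 in Wnt4βKO. By the first probe 2 Wnt4βKO arrays were below all controls (difference -0.28 ± 0.26, SE), and by the second 3 were above them (0.68 ± 0.30, SE, limma adjusted p = 0.728). Another probe was above background on no array. The direction of Acta2 was therefore not settled by these arrays, although both probes carry the same transcript accession.

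Pdgfrb, the receptor by which PDGF-B recruits pericytes, measured 6.60, 6.77 and 6.94 in controls and 6.61, 6.99, 7.00 and 7.28 in Wnt4βKO. As with Tagln, 3 Wnt4βKO arrays lay above all controls and Wnt4βKO 1 did not, but the difference of 0.20 ± 0.16 (SE) had an adjusted p of 0.866. Rgs5, a regulator of G-protein signalling that is a classic pericyte marker, measured 6.59, 7.62 and 7.42 in controls and 6.69, 7.41, 6.90 and 6.65 in Wnt4βKO. All 4 Wnt4βKO values fell inside the range of the controls, with a difference of -0.30 ± 0.28 (SE, adjusted p = 0.888).

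Among the remaining mural genes, the NG2 proteoglycan gene Cspg4 and the adhesion molecule gene Mcam differed by 0.20 ± 0.20 and 0.093 ± 0.14 (SE). Des, the muscle intermediate filament, was above background on only 3 arrays and differed by 0.016 ± 0.082 (SE). Myh11, the smooth muscle myosin heavy chain, differed by -0.026 ± 0.085 (SE) by its brightest probe and by 0.037 ± 0.080 by a second, dimmer one.

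**Figure D2:**
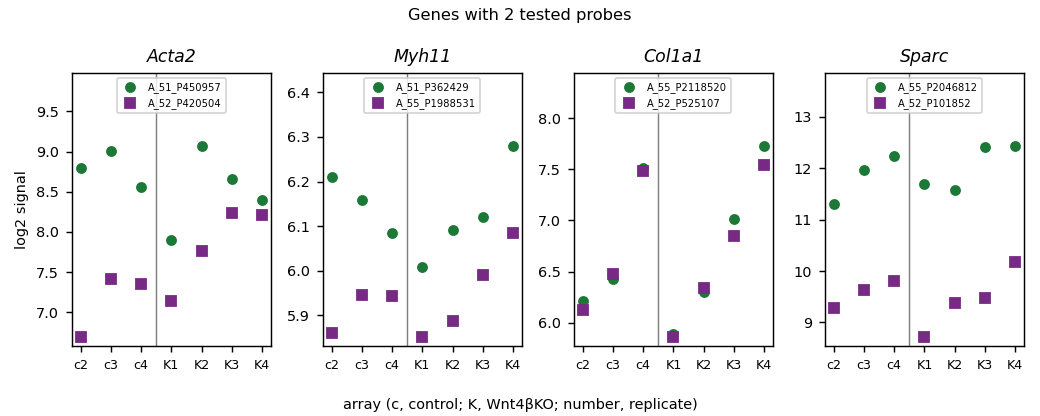
Log2 signal (y axis) on each array (x axis, c for control and K for Wnt4βKO with the replicate number) for the 4 members with 2 tested probes, with circles for the brighter probe, squares for the dimmer one and a vertical line between the groups. The Acta2 probes differ in direction (-0.28 and 0.68) as do those of Sparc (0.19 and -0.14) and, near 0, those of Myh11 and Col1a1, whose Col1a1 probes track each other array by array.

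Stromal genes differed widely between mice, and none of them separated the groups. Of the 12, 4 were higher and 8 lower, their median was -0.014, and in 3 of 12 the difference exceeded its standard error. Col4a1 and Col4a2 encode the chains of the main basement membrane collagen. Col4a1 measured 8.37, 8.93 and 8.84 in controls and 7.64, 8.06, 8.63 and 8.74 in Wnt4βKO. Col4a2 measured 7.93, 8.75 and 8.15 in controls and 7.16, 7.87, 8.27 and 8.46 in Wnt4βKO.

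For both chains Wnt4βKO 1 and 2 lay below all controls and Wnt4βKO 3 and 4 among them. The Wnt4βKO mean was 73.6% of control for Col4a1 and 79.1% for Col4a2, with differences of -0.44 ± 0.28 and -0.34 ± 0.34 (SE, adjusted p = 0.824 and 0.892). Their patterns ran close together, with a Pearson's r of 0.94 over the 7 arrays after each group was centred on its mean.

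The widest ranges over all arrays were those of Col3a1 and Col1a2, both fibrillar collagens. Col3a1, the type III collagen of loose connective tissue, measured 7.14, 8.14 and 9.05 in controls and 6.29, 7.55, 8.27 and 8.91 in Wnt4βKO. The range of controls thus held all but Wnt4βKO 1, the highest array was 6.78 times the lowest, and the difference of -0.35 ± 0.67 (SE) had an interval from -1.92 to 1.21 (adjusted p = 0.946). Col1a1, a chain of type I collagen, measured 6.21, 6.43 and 7.51 in controls and 5.89, 6.30, 7.01 and 7.73 in Wnt4βKO. Both groups ran from a similar bottom to a similar top, the difference was 0.017 ± 0.49 (SE, adjusted p = 0.998), and a second probe gave -0.044 ± 0.45. Col1a2, the partner chain, had a 6.16-fold range with a difference of -0.024 ± 0.68 (SE).

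Sparc, a matrix protein that binds collagen, measured 11.31, 11.96 and 12.23 in controls and 11.69, 11.57, 12.41 and 12.44 in Wnt4βKO. Wnt4βKO 3 and 4 lay above all controls, with a difference of 0.19 ± 0.30 (SE, adjusted p = 0.929), whereas a second probe gave -0.14 ± 0.31. Thy1, a surface glycoprotein of fibroblasts and also of neurons and T cells, measured 7.68, 9.41 and 9.96 in controls and 7.44, 9.78, 9.97 and 9.92 in Wnt4βKO. In each group 1 array was far below the others, and the interval of its difference, -1.53 to 2.05, was the widest of all members.

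The rest of the class also overlapped between groups. The small proteoglycans Dcn and Lum, which bind collagen fibrils, differed by -0.0036 ± 0.56 and -0.15 ± 0.13 (SE). Differences were 0.11 ± 0.43 for Col6a1, a chain of the beaded-filament collagen VI, and -0.32 ± 0.34 for the intermediate filament gene Vim. Fn1, the fibronectin gene, differed by -0.0025 ± 0.16 and was above background on 5 arrays.

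What set the stromal genes apart was their spread between mice of the same group. The within-group SD of a member was 0.61 at the median of the 12 stromal genes, 0.27 over the 8 mural genes and 0.21 over the 13 endothelial genes, beside 0.16 over the 26102 tested probes with a value on every array. Of the 12 stromal genes, 9 lay above 0.44, the 95th percentile of all probes, as did 2 of 13 endothelial genes (Vwf and Plvap) and 0 of 8 mural genes. Thy1 had the largest within-group SD (1.21), followed by Col1a2 (1.08), Col3a1 (1.06) and Dcn (0.89). This spread was what widened the intervals. Their half-width had a median of 0.91 for stromal genes, against 0.34 for endothelial and 0.42 for mural genes. The stromal differences were thus the least precisely measured of the 3 classes. A wide spread did not mark all stromal genes, nor only them. The SD of the list mean was 0.59 in controls and 0.65 in Wnt4βKO for the 12 members. It was 0.21 and 0.22 for 23 other fibroblast and matrix genes. For immune markers it was 0.095 and 0.50, and for acinar markers 0.079 and 0.49.

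**Figure D3:**
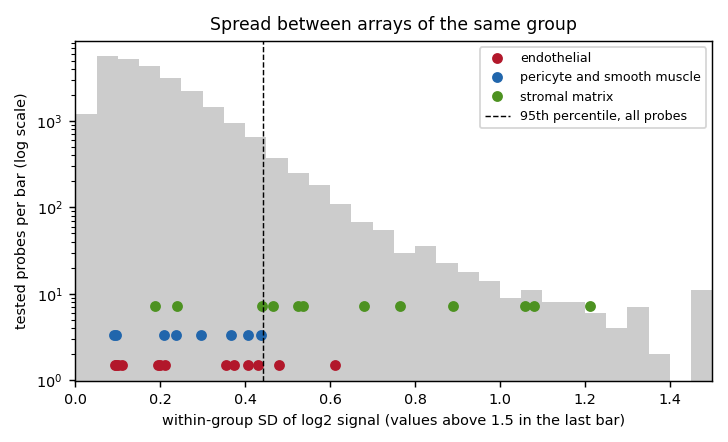
Number of tested probes (y axis, log scale) by within-group SD of the log2 signal (x axis) in grey, with the tested members as points at arbitrary heights, coloured by class. Of 12 stromal genes, 9 lie right of the dashed 95th percentile at 0.44, while most endothelial and all mural genes lie left of it.

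The stromal genes varied together from mouse to mouse. After centring each group on its mean, the median Pearson's r over the 66 pairs of stromal genes was 0.84, and 100% of the pairs were positive. The median was 0.58 over 78 endothelial pairs (97.4% positive) and 0.37 over 28 mural pairs (71.4% positive), beside 0.0028 over all pairs of the 13637 tested genes (50.2% positive). Pairs of 1 stromal and 1 endothelial gene had a median of 0.74. These values are descriptions over 7 arrays that the genes share, with no test.

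As to single pairs, r was 0.97 for the type I chains Col1a1 and Col1a2 and 0.95 for Col1a2 and Col3a1. Single genes followed their class to different degrees. Col6a1 (r = 0.99) and Col3a1 (0.99) were closest to the mean of the other stromal genes and Col4a2 (0.81) was least close. Of the endothelial genes, Tie1 (0.98), Emcn (0.94) and Plvap (0.93) were close to the rest, while Kdr (0.44), Esam (0.40) and Cd34 (0.25) were not. Mural genes were the least alike, with Tagln (0.76) and Pdgfrb (0.75) highest and Cspg4 (0.010) and Mcam (-0.060) unrelated to the others.

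Particular arrays carried the pattern. Control 2 was the lowest control for 12 of 12 stromal genes, and Wnt4βKO 1 was the lowest Wnt4βKO array for 11 of 12, the exception being Sparc. Both held at once for 11 of 12 stromal, 8 of 13 endothelial and 3 of 8 mural genes, beside 10.7% of all tested genes. At the other end, control 4 was the highest control for 8 stromal genes and Wnt4βKO 4 the highest of its group for 11. The mean of the 12 stromal genes was 7.33, 8.17 and 8.48 in controls 2, 3 and 4 and 7.08, 7.74, 8.22 and 8.58 in Wnt4βKO 1 to 4. The 2 groups thus spanned nearly the same range, 7.33 to 8.48 and 7.08 to 8.58. Control 2 and Wnt4βKO 1 were the arrays farthest from the median of this stromal mean. Over the 5 arrays without them, the median pairwise r was 0.64 for stromal genes, 0.30 for endothelial genes and -0.45 for mural genes. Leaving out arrays picked in this way narrows the range, so a lower r follows in part from the choice. What each value rested on was not tested.

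**Figure D4:**
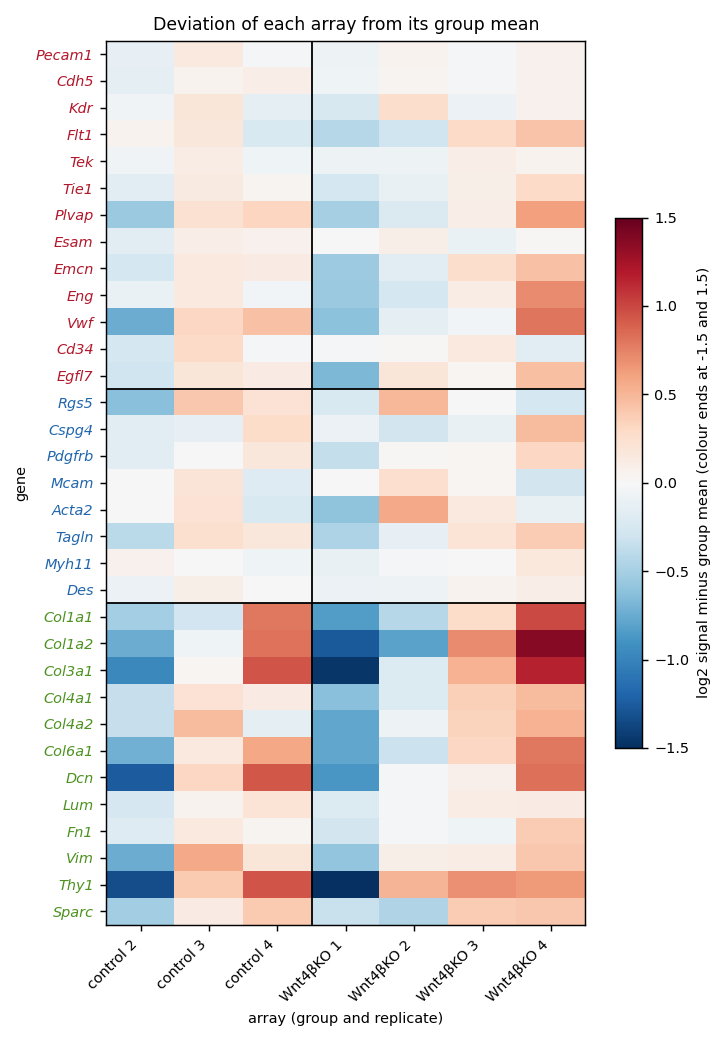
Deviation of each array (x axis) from the mean of its own group, as log2 signal, for each tested member (y axis, names coloured by class), red above and blue below the mean, with colours ending at -1.5 and 1.5. Control 2 and Wnt4βKO 1 are blue for nearly all stromal genes and control 4 and Wnt4βKO 4 mostly red, with the same columns paler for endothelial genes.

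Whole-class means followed one another. The mean of the 13 endothelial genes was 7.35, 7.74 and 7.63 in controls and 7.25, 7.51, 7.63 and 7.86 in Wnt4βKO, and its centred r with the stromal mean was 0.94, or 0.75 without the 2 arrays named above. For the 8 mural genes the means were 7.20, 7.50 and 7.41 in controls and 7.18, 7.52, 7.47 and 7.52 in Wnt4βKO. Other lists moved with the stromal mean in the same centred comparison, with r of 0.99 for other fibroblast and matrix genes, 0.96 for basement membrane genes, 0.95 for Schwann cell markers and 0.60 for immune markers. Acinar markers (0.28), duct markers (0.26) and α-cell markers (0.079) followed it less, and β-cell markers ran against it (-0.68). The part of any of these cell types in the result was not tested.

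The class means were also compared within each row of the slide. Controls 2 and 3 and Wnt4βKO 3 and 4 lay in 1 row, and control 4 and Wnt4βKO 1 and 2 in the other. The stromal mean of Wnt4βKO was higher by 0.65 in the first row and lower in the second (-1.07, against a single control). Endothelial means differed by 0.19 and -0.25 in the same order, and mural means by 0.15 and -0.057. The direction thus turned between rows, but the rows hold different mice, so row and mouse cannot be told apart, while acinar markers were lower in Wnt4βKO within both (-0.62 and -0.79).

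**Figure D5:**
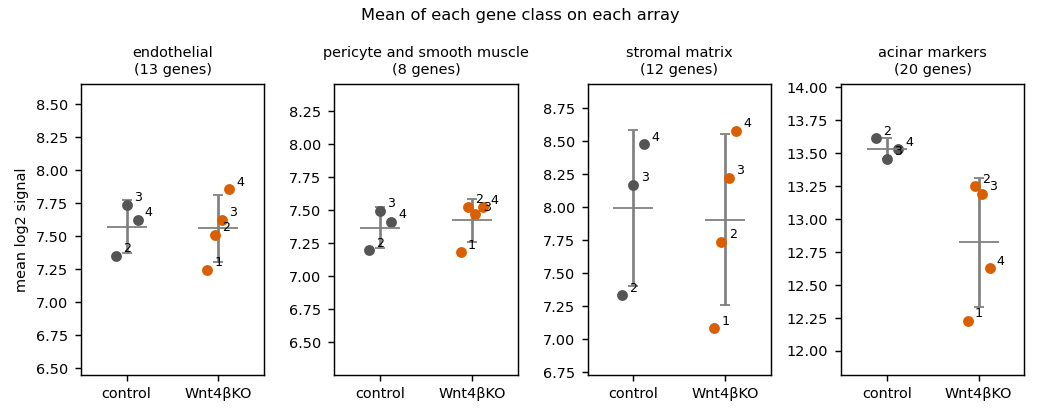
Mean log2 signal (y axis, equal span in each panel) of each class and of 20 acinar markers on each array, with the replicate number beside each point, grey points for control and orange for Wnt4βKO, and bars for the mean ± SD. The groups overlap for the 3 classes, whereas all 4 Wnt4βKO arrays lie below the controls for acinar markers (12.23 to 13.25 against 13.45 to 13.61).

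Further genes of the same cells were read from other lists. Of 24 tested other endothelial genes, 0 had an adjusted p under 0.05, with a median difference of 0.025. At an unadjusted p under 0.05 there was 1 (4.17%), beside 6.96% of all tested probes. That gene was Nostrin, which regulates endothelial nitric oxide synthase (-0.25 ± 0.099, SE, limma adjusted p = 0.686). Of 6 listed lymphatic genes 4 were tested, with a median of -0.060, while Flt4 and Ccl21a were above background on no array. The hyaluronan receptor Lyve1, also carried by some macrophages, measured 6.30 ± 0.13 (SD, n = 3) in controls and 5.98 ± 0.15 (n = 4) in Wnt4βKO (difference -0.32 ± 0.11, SE, limma adjusted p = 0.632). Of the adhesion molecules of inflamed endothelium, Sele, Selp and Icam1 were above background on no array, while Vcam1 was on all 7 (6.25 ± 0.30 in controls, SD, and 6.32 ± 0.19 in Wnt4βKO).

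Of 13 tested vascular ligands, 0 had an unadjusted p under 0.05, beside 6.96% of all tested probes, and the median was -0.0001. In 2, Angpt1 and Apln, all 4 Wnt4βKO values lay below the controls (3.7% of probes). Both met the filter of 3 arrays above background through their 3 controls, so this count is not a result about the ligands. Vegfa measured 9.71 ± 0.37 (SD, n = 3) in controls and 9.69 ± 0.32 (n = 4) in Wnt4βKO, a difference of -0.027 ± 0.22 (SE, adjusted p = 0.99). Angpt1, which stabilises vessels through Tek, measured 5.98, 5.99 and 6.08 in controls and 5.80, 5.94, 5.90 and 5.79 in Wnt4βKO. Its probe was dim and above background on 3 controls and 1 Wnt4βKO array, with a difference of -0.16 ± 0.073 (SE, adjusted p = 0.734). For Apln, the ligand apelin, the probe was dim, and above background on all 3 controls and no Wnt4βKO array. Its means were 6.00 in controls and 5.93 in Wnt4βKO. The difference of -0.070 ± 0.060 (SE, limma adjusted p = 0.876) had an interval from -0.21 to 0.072. Angpt2, the antagonist of Angpt1, differed by -0.29 ± 0.25 and Pdgfb, which endothelial cells release to recruit pericytes, by 0.33 ± 0.16 (SE, adjusted p = 0.875 and 0.755).

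In the list of other mural genes, 1 of 21 (4.76%) had an unadjusted p under 0.05, beside 6.96% of all tested probes, and the median was 0.038. It was the actin-binding caldesmon gene Cald1 (-0.45 ± 0.15, SE, limma adjusted p = 0.638). Basement membrane genes other than Col4a1 and Col4a2 had a median of -0.098, with 11 of 14 lower, where 49.1% of all tested probes were lower. Of these genes, 0 had an unadjusted p under 0.05. Wnt4βKO 1 was the lowest Wnt4βKO array for 13 of the 14. The difference of the list mean was -0.085 with all arrays and 0.013 without Wnt4βKO 1. For matrix receptors the median was -0.063, with 10 of 15 lower and 0 at that threshold. The difference exceeded its standard error for 4 of the 14 and 8 of the 15.

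Among other matrix genes a chain of collagen VI came lowest in p. Of 23 tested other fibroblast and matrix genes, with a median of -0.0035, 2 (8.7%) had an unadjusted p under 0.05, beside 6.96% of all tested probes. They were Col6a3 and Col14a1. Col6a3 measured 6.75, 6.74 and 6.80 in controls and 6.30, 6.26, 6.34 and 6.08 in Wnt4βKO. All 4 Wnt4βKO arrays lay below all controls, at 69.9% of the control mean, and the difference of -0.52 ± 0.081 (SE) had an unadjusted limma p of 0.000314 and an adjusted p of 0.373. Col6a1 and Col6a2, which assemble with it, differed by 0.11 ± 0.43 and -0.0035 ± 0.15 (SE), and whether the chains differ from each other was not tested. Nor did Col6a3 share the swing between mice, with a centred r with the stromal mean of -0.39, against 0.95 for Col6a2. Col14a1, a collagen on the surface of fibrils, differed by -0.40 ± 0.13 (SE, adjusted p = 0.625).

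Markers of neighbouring cells completed the account. The 7 tested Schwann cell markers had a median of -0.037, and the glial genes Gfap, Cdh19 and Foxd3 were above background on no array. Immune markers had a median of 0.22 with 11 of 12 higher and 0 at an unadjusted p under 0.05, and Wnt4βKO 4 stood highest (mean 8.71, against 7.59 to 7.92 in the other Wnt4βKO arrays and 7.65 to 7.83 in controls). Without it the immune means were 7.75 in Wnt4βKO and 7.76 in controls. The exocrine lists leaned the other way, with 17 of 20 acinar markers lower (median -0.52), where 49.1% of all tested probes were lower. At an unadjusted p under 0.05, 7 of the 20 (35%) were lower, beside 3.63% of all tested probes. Among these 7 were the acinar transcription factor Ptf1a (-1.25 ± 0.30), Cuzd1 (-2.06 ± 0.57) and the lipase-related Pnliprp1 (-0.96 ± 0.27, SE, limma adjusted p = 0.496, 0.573 and 0.582). Of 10 duct markers 1 (10%) had an unadjusted p under 0.05, beside 6.96% of all tested probes. It was the mucin gene Muc1 (-0.78 ± 0.33, SE), and the list's median was -0.036. β-cell markers had a median of -0.0032, with Ins1 at 0.29 ± 0.098 and the oxidoreductase Ero1b at -0.86 ± 0.28 (SE, adjusted p = 0.632 and 0.629), and α-cell markers one of 0.088 with 0 of 8 at that threshold.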

How the data were processed

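Islet RNA of 7 samples was hybridised to 1-colour Agilent arrays. The authors deposited scanner files with spot intensity on a linear scale, not normalized between arrays. Their headers name Agilent Feature Extraction 12.0.1.1, whereas the submitters' processing notes name 9.1. The deposited value table, whose scale is not stated and which looks like log2 values (median 4.96 to 4.97 per array), was not used, because its deviations followed those of the same sample's scanner file with r of only -0.21 to 0.15. Following the authors' methods, median spot intensity was corrected with normexp (offset 50), log2 transformed and quantile normalized. Flagged spots were set to missing (65 values among tested probes). Probes well above background on at least 3 arrays were tested (26151 of 56605) with limma 3.58.1 under R 4.3.3, as Wnt4βKO minus control, two-sided, with Benjamini-Hochberg adjustment over all of them. Gene symbols came from RefSeq accessions, which named 58.3% of probes.

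The members and lists were chosen with earlier results of these data known. Values on every array are given for the 3 members of each class with the largest difference and for members picked for their role. From other lists, at most 3 genes with the smallest unadjusted p under 0.05 are named, with Vegfa, Angpt1, Angpt2, Pdgfb and Pdgfra. A result that falls under this rule is not reported here. Thy1, Apln and Vcam1 were added after their values were seen, as were the comparisons of single arrays and of correlations. Alternatives covered background correction, offset, scaling, filter, variance model, array weights, replicate block, probes, acinar covariate, slide row and leaving out each array. Scripts were tested on simulated data. Sequences were read with Python 3.11.15.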

Additional observations from a re-analysis of the deposited data

Results flagged for a closer look

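In the group of 4 Wnt4βKO arrays, the lowest or highest value was set apart from the others by Dixon's ratio for 2 of 36 values examined (33 genes and 3 class means), above the 95% critical value for 4 values. Chance alone gives about 1 in 20. For Thy1 the ratio was 0.93, since Wnt4βKO 1 measured 7.44 and the other arrays 9.78, 9.97 and 9.92. For the mean of the pericyte and smooth muscle genes it was 0.83, with Wnt4βKO 1 at 7.18 and the others at 7.52, 7.47 and 7.52. The group of 3 controls was too small for this rule.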

How the results depend on the processing

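The count of members with an adjusted p under 0.05 was 0 under all 20 alternatives. At an unadjusted p under 0.05 it was 1 (Tagln) with no background correction, with trended and robust variance, with array weights and with a block for slide row, and between 0 and 2 when each array was left out (2 without control 2, Rgs5 and Vim, and 2 without Wnt4βKO 1, Pdgfrb and Tagln). With the replicate block it was 5 (Plvap, Pdgfrb, Tagln, Col6a1 and Sparc), but the numbers did not pair the samples (r of -0.13, 0.23 and -0.0069 for numbers 2, 3 and 4), and Wnt4βKO 1, whose number no control shares, drops out of that fit. The median differences stayed within the spread between arrays, with -0.090 to 0.069 for endothelial, -0.017 to 0.15 for mural and -0.41 to 0.25 for stromal genes. The stromal median changed sign among them, being -0.41 with processed signals scaled to the 75th percentile, 0.21 with the acinar covariate, -0.40 without control 2 and 0.25 without control 4. Direction turned by more than a standard error for Acta2 with both probes averaged (0.20) or with the acinar covariate (0.37), the latter also turning Rgs5, Cspg4 and Col4a2 to near 0 (0.0060, -0.0004 and 0.046), and for Tie1, Des and Col1a1 with the 75th percentile scaling (-0.29, -0.12 and -0.50) and Cd34 without control 3 (0.12). The cause was not tested. The median stromal pairwise r, examined after seeing the data, was 0.83 to 0.89 under other scalings and 0.77 to 0.90 without any 1 array. The median mural r was 0.13 without Wnt4βKO 1, against 0.37. Signal over background limited Pecam1, Cdh5, Tek, Esam, Des, Lum, Fn1, Vwf and Col1a1, which were not above background on every array.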
